A study of Mus musculus with 4 samples.

Results

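Hif3a, Crispld2, Dab1, Htr3b, Adra2b, Edn3, Ctso, Tenc1 and Prcp are 9 of the 22667 genes listed for N2a cells, and 9 of the 12497 genes that had 75 reads or more in total. They were chosen by their higher reads after dexamethasone (Dex) in these same libraries and because the study's Dex tables do not list them, with no stated threshold, so their Dex ratios are a description and were not tested. N2a (Neuro-2a) is a mouse neuroblastoma line, grown here as a monolayer in DMEM with 10% FBS. The cells of the siControl groups were transfected for 48 h with non-targeting siRNAs and those of the siArglu1 groups with an siRNA against Arglu1. Arglu1 encodes a splicing factor and coactivator of the glucocorticoid receptor (GR). Cells of both kinds were then treated for 4 h with ethanol as vehicle (Veh) or with Dex at 100 nM. Each of the 4 groups is 1 polyA-enriched library from RNA pooled over 3 cultures, so no value below has a replicate, and every interval is an exact 95% interval of counting error only.

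GR is a hormone-activated transcription factor. Bound by a glucocorticoid such as Dex, it moves to the nucleus and binds DNA at glucocorticoid response elements, in which a pair of hexamers related to AGAACA face each other across a 3-base spacer. Many of these elements lie far from the genes they act on, and glucocorticoids change the expression of genes of metabolism, signalling and the clock in neural as in other cells.

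The libraries held 66074574 to 86541444 reads on genes. Arglu1 had 10165 reads with vehicle and 11825 with Dex after siControl, and 2637 and 3254 after siArglu1, a log2 ratio of -1.92 for siArglu1 over siControl in vehicle and of -2.15 in Dex. Nr3c1, which encodes GR, had 2904, 2890, 2297 and 3285 reads in the same order. Scaled to library size, its log2 ratio for siArglu1 over siControl was -0.32 (-0.40 to -0.24) in vehicle and -0.10 (-0.18 to -0.03) in Dex. Of 14 markers of N2a cells, 13 had a mean of at least 1 cRPKM, the authors' RPKM corrected for how much of a gene reads can map to. None of 9 glial, immune and endothelial markers did, and their summed cRPKM were 3.67, 3.45, 2.38 and 2.63. Since these are bulk libraries, fewer cells that express a gene and less RNA per cell cannot be told apart.

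The start regions of 4 of the genes are printed here because the results turn on these genes, from 250 bases before to 50 after the RefSeq transcription start (GRCm38.p6, gene strand). The start base is in capitals, as is the match to AGAACA. Hif3a, which had the largest Dex ratio, starts on the minus strand in chr7:17062378-17062677. Crispld2, whose level was lower after Arglu1 knockdown, lies on the plus strand in chr8:119992188-119992487. Htr3b, the only one of the 9 genes with an AGAACA hexamer in this window, lies on the minus strand in chr9:48964941-48965240. Ctso, with the highest level of the 9, lies on the plus strand in chr3:81932351-81932650.
Hif3a: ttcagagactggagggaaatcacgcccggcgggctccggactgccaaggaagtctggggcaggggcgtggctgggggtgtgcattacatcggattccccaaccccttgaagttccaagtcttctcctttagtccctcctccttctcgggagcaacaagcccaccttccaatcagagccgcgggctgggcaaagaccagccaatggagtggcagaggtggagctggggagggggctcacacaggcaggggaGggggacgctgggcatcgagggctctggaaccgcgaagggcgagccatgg
Crispld2: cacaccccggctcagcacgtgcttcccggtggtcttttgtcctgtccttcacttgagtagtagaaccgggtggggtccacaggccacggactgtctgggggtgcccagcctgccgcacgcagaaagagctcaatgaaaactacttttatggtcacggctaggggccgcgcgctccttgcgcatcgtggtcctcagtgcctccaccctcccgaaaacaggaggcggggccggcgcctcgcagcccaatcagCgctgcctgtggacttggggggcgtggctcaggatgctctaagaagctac
Htr3b: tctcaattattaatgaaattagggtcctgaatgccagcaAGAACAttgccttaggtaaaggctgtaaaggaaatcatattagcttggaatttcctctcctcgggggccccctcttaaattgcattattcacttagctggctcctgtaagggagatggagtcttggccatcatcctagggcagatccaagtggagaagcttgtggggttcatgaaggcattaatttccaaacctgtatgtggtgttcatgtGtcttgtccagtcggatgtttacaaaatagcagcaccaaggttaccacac
Ctso: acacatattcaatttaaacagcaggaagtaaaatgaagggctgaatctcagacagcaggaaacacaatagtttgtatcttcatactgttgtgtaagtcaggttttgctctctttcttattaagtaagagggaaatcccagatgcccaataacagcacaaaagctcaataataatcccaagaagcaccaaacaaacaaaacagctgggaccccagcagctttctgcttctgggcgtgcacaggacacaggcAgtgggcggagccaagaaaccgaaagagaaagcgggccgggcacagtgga

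All 9 genes had an entry in the RefSeq table, with 10 start regions in all, since Dab1 has 2. The palindromic element, AGAACA and TGTTCT separated by 3 bases of any kind, was in none of them and in 3 of 32851 start regions of the same length (0.00913%). Its core, ACA and TGT separated by 3 bases, was in none of the 10 and in 6.85% of all. The single hexamer AGAACA, searched on both strands and contained in the palindrome, was in 1 of the 10, that of Htr3b, where it began 211 bases before the start, and in 19.0% of all. The windows differed in base composition, from 44.3% G and C for Htr3b to 77.3% for 1 of the 2 of Dab1, against a median of 52.7% over all. Among the others, Ctso was at 45.3%, Crispld2 at 63.0%, Hif3a at 63.7% and Adra2b at 68.0%.

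Per length, the genes spanned a wide range of low to moderate levels, and their order was nearly the same in each library. In siControl Veh the cRPKM was 3.96 for Ctso (3.70 to 4.23), 2.72 for Prcp (2.49 to 2.96), 1.64 for Crispld2 (1.49 to 1.80), 0.84 for Tenc1 (0.741 to 0.949) and 0.55 for Adra2b (0.463 to 0.648). These 5 neighbours in the order had intervals that did not overlap. Htr3b at 0.15 cRPKM and Edn3 at 0.14 had overlapping intervals, Dab1 was at 0.03, and Hif3a had no read. In siArglu1 Dex the cRPKM was 14.7 for Ctso (14.2 to 15.1) and 5.33 for Prcp (5.05 to 5.62), and Tenc1 at 2.11 (1.97 to 2.26) stood above Crispld2 at 1.86 (1.72 to 2.01), with overlapping intervals. The 4 genes below 1 cRPKM in all libraries, Htr3b, Edn3, Dab1 and Hif3a, rest on 0 to 104 reads per library.

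**Figure D1:**
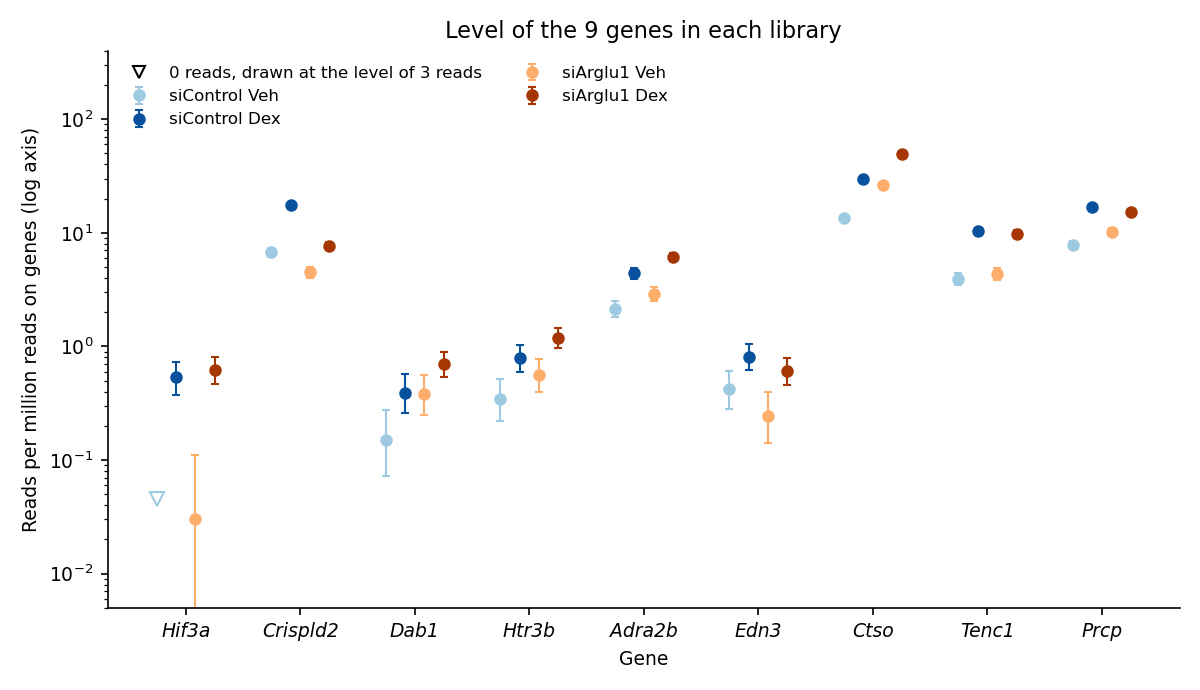
Reads on each gene scaled to library size, in CPM (log axis), of the 9 genes in the 4 libraries, with 95% counting intervals as bars and the single 0, Hif3a in siControl Veh, drawn as an open triangle at the level of 3 reads. Within each siRNA, the Dex point of every gene lies above its vehicle point.

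After Dex, all 9 genes had a higher scaled level than in vehicle with siControl and with siArglu1, beside 48.3% and 49.8% of all genes. The counting interval of every one of these ratios lay above 0, and the share of all genes with such an interval was not worked out. Nothing is read from these counts, because the genes were chosen for a rise with Dex. On the log2 scale the ratios ran from 0.93 for Edn3 to 5.31 for Hif3a in siControl, with a median of 1.15, and from 0.59 for Prcp to 3.84 for Hif3a in siArglu1, with a median of 1.06. The medians over all genes were -0.0033 and -0.00081. The 5.31 of Hif3a is set by the prior count of 1 read, since siControl Veh had none, and the median is the same with Hif3a at the level of 3 reads. A ratio of at least 1 was reached by 8 of the 9 in siControl, where 0.32% of all genes reached it, and by 5 of the 9 in siArglu1, where 0.328% did, and nothing is read from these counts because the genes were chosen on them. Of the 40 genes that reached 1 in siControl, 8 are members of this set, 10 are genes of the study's Dex tables and 22 are neither. Of the 13 that reached it with both siRNAs, 4 are members (Hif3a, Htr3b, Adra2b and Tenc1), 7 are genes of those tables and 2 are neither, Kcns2 and E230001N04Rik. The median ratio of the 10 tabled genes was 2.27 in siControl and 2.29 in siArglu1.

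**Figure D2:**
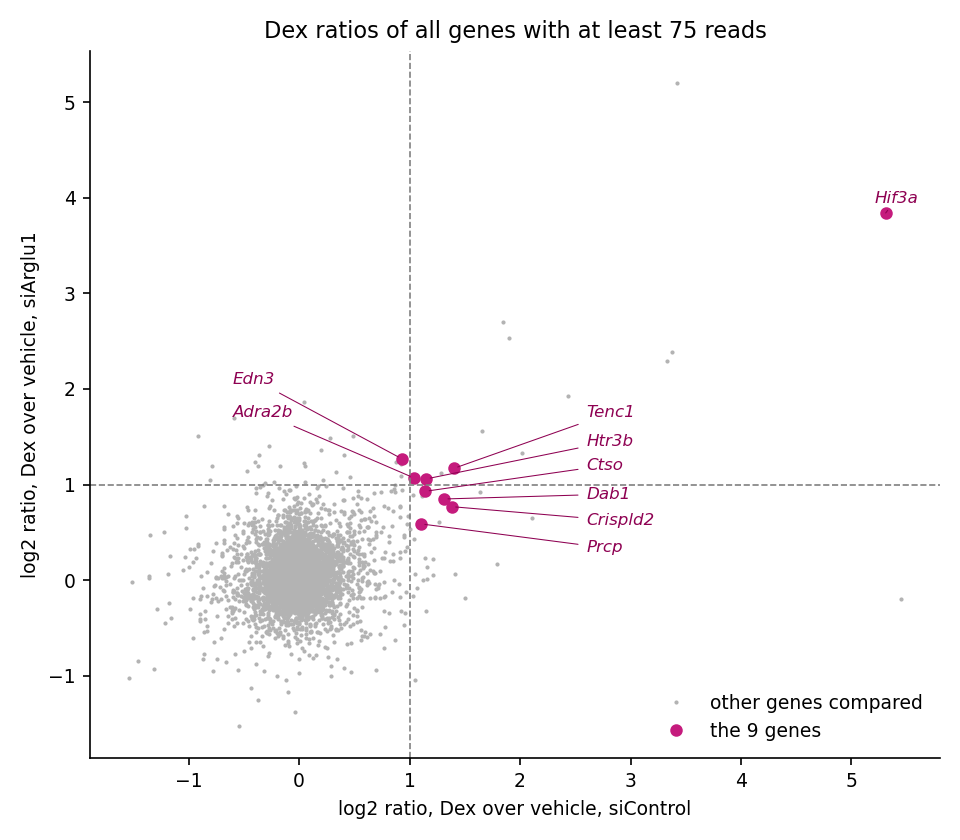
Log2 Dex over vehicle in siControl (x axis) against the same ratio in siArglu1 (y axis), 2 pairs of libraries that share no library, for the 12497 genes with at least 75 reads, with dashed lines at 1. Hif3a lies apart from the other 8 genes, which sit between 0.93 and 1.40 on the x axis and between 0.59 and 1.27 on the y axis.

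Hif3a encodes a member of the HIF family of oxygen-regulated transcription factors, of which several forms oppose HIF1A. It had 0 and 38 reads in the siControl pair (vehicle, Dex) and 2 and 54 in the siArglu1 pair, with cRPKM of 0.00, 0.08, 0.00 and 0.10. Reads were thus present in both Dex libraries and at or under 3 in both vehicle libraries. Set against the level of 3 reads in siControl Veh, it was at least 11.8-fold higher in siControl Dex, while the counting interval of the ratio began at 9.16-fold and had no upper end, and with siArglu1 the fold was 20.3 (5.36 to 172). With that prior count, its log2 ratio ranked 2 of all genes in both pairs. Of 7 other genes of the oxygen response with at least 75 reads, 0 reached a Dex ratio of 1 in either pair. Over all genes only 0.32% in siControl and 0.328% in siArglu1 did, so nothing is read from a 0 in this list or those below. Hif1a, the far more abundant family member, had 58.2, 55.5, 32.6 and 35.5 cRPKM, and its Dex ratios were -0.06 and 0.09.

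Edn3, a secreted peptide that signals through endothelin receptors in neural crest cells, had, from vehicle to Dex, 28 and 58 reads in siControl and 16 and 53 reads in siArglu1. The log2 Dex ratios were 0.93 (0.28 to 1.66) with siControl and 1.27 (0.49 to 2.22) with siArglu1, and these wide intervals overlapped. The endothelin receptors were close to absent, with 0 to 2 reads of Ednra and 0 to 1 of Ednrb per library. Of the 3 other genes of the endothelin system with at least 75 reads, Ece1, which cleaves big endothelins, had 23, 45, 22 and 44 reads and Dex ratios of 0.84 and 0.57. Ece2 and Ecel1 had Dex ratios between -0.22 and -0.03.

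Crispld2, a secreted protein with a CAP domain that is known to bind lipopolysaccharide, had 447 reads with vehicle and 1251 with Dex after siControl, and 294 and 666 after siArglu1. Both siArglu1 libraries were low beside the siControl library of the same treatment, although the Dex library was the higher one with either siRNA. The scaled level with Dex was 2.61-fold that with vehicle (2.34 to 2.92) in siControl and 1.70-fold (1.48 to 1.96) in siArglu1. Of 5 other genes of CAP domain proteins with at least 75 reads, 0 reached a Dex ratio of 1 in either pair, beside 0.32% and 0.328% of all genes. Pi16, the most abundant of them after Glipr2, had Dex ratios of 0.33 and 0.18.

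Htr3b encodes a subunit of the serotonin-gated 5-HT3 channel and needs HTR3A to form one. It had 23 and 56 reads in the siControl pair (vehicle, Dex) and 37 and 104 in the siArglu1 pair, and the siArglu1 Dex library was the highest. Its log2 Dex ratios were 1.15 (0.46 to 1.95) after siControl and 1.06 (0.53 to 1.66) after siArglu1. Htr3a, its partner subunit and neighbour on chromosome 9, was far more abundant, with 16.6, 19.1, 25.8 and 29.7 cRPKM against 0.15, 0.33, 0.24 and 0.51 for Htr3b. The Dex ratios of Htr3a were 0.21 and 0.17, below 1 in both pairs. Htr6, the only other serotonin receptor with at least 75 reads, had Dex ratios of 0.02 and -0.01.

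Adra2b encodes an alpha-2 adrenoceptor, a receptor of noradrenaline and adrenaline coupled to inhibitory G proteins. It had, from vehicle to Dex, 142 and 313 reads in siControl and 190 and 532 reads in siArglu1. The Dex ratio was nearly the same with both siRNAs, 1.04 (0.75 to 1.34) in siControl and 1.07 (0.83 to 1.32) in siArglu1, with a difference of 0.04 (-0.35 to 0.42). Adra2b was the most abundant of the 9 adrenoceptor genes in the list, with 0.55 to 1.58 cRPKM. Adra2a, the only other one with at least 75 reads, had 11, 17, 25 and 30 reads and Dex ratios of 0.49 and -0.14.

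Dab1 encodes an adaptor that is phosphorylated when reelin binds its receptors on migrating neurons. It had 10 reads with vehicle and 28 with Dex after siControl, and 25 and 61 after siArglu1, so siControl Dex and siArglu1 Veh were alike. In siControl the log2 Dex ratio was 1.31 (0.30 to 2.59), and in siArglu1 it was 0.85 (0.18 to 1.61). Among 11 other genes of the reelin pathway with at least 75 reads, 0 reached 1 in either pair, beside 0.32% and 0.328% of all genes. Reelin itself had 3 to 6 reads and Vldlr 3 to 10 reads per library, while Lrp8, the other reelin receptor, had 9.66 to 14.9 cRPKM.

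Tenc1, now named Tns2, encodes a tensin, a family that links integrins at focal adhesions to the actin cytoskeleton. It had 260 and 735 reads in the siControl pair (vehicle, Dex) and 285 and 852 in the siArglu1 pair. Both Dex libraries were well above both vehicle libraries, with log2 Dex ratios of 1.40 (1.19 to 1.61) and 1.17 (0.97 to 1.37). Another tensin gene also had a higher level with Dex. Tns1 had 1131, 2214, 897 and 2393 reads, with a Dex ratio of 0.87 in siControl and one that just reached 1 in siArglu1. Tns3 and Tns4 had 1 to 8 reads per library. The other 5 genes of the tensin and PI3K list with at least 75 reads had Dex ratios between -0.27 and 0.38.

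Ctso encodes cathepsin O, a lysosomal cysteine protease, and had the most reads of the 9 genes. There were, from vehicle to Dex, 893 and 2112 reads in siControl and 1712 and 4334 reads in siArglu1. Knockdown and Dex libraries were each above their control, and siArglu1 Dex was the highest. The Dex fold came to 2.21 (2.04 to 2.39) with siControl and 1.90 (1.80 to 2.02) with siArglu1. Of 6 other cathepsin genes with at least 75 reads, 0 reached a Dex ratio of 1 in either pair, beside 0.32% and 0.328% of all genes. The ratios of these cathepsin genes lay between -0.16 and 0.12. They include Ctsd, the most abundant at 199 to 276 cRPKM.

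Prcp encodes a lysosomal carboxypeptidase that removes the residue after a proline, with angiotensin and melanocortin peptides among its substrates. It had 522 reads with vehicle and 1200 with Dex after siControl, and 671 and 1341 after siArglu1. The Dex fold was 2.15 (1.93 to 2.38) with siControl and 1.50 (1.37 to 1.65) with siArglu1, the smallest of the 9 there. Of 7 other genes of the prolyl peptidase list with at least 75 reads, 0 reached a Dex ratio of 1 in either pair, beside 0.32% and 0.328% of all genes. Prep, the most abundant of them, had Dex ratios of 0.17 and 0.22.

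**Figure D3:**
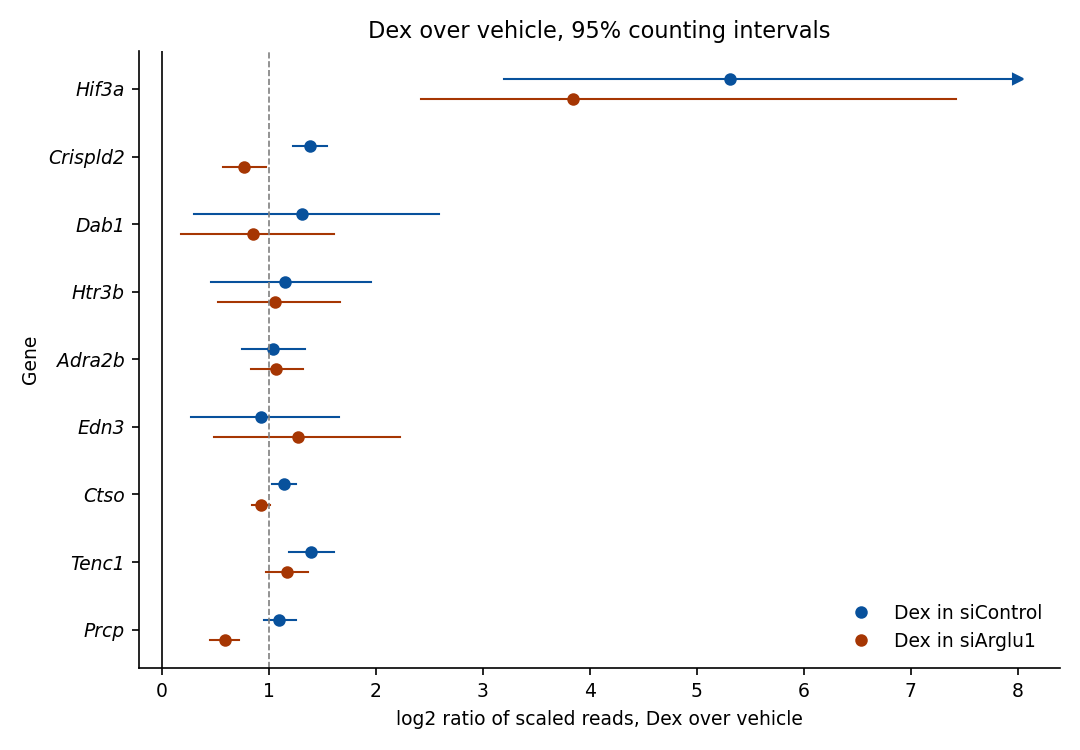
Log2 ratio of scaled reads, Dex over vehicle, of each gene in siControl (blue) and siArglu1 (brown), with 95% counting intervals as bars, an arrow where an interval has no upper end and a dashed line at 1. All intervals lie above 0, and those of Crispld2, Ctso and Prcp in siArglu1 lie left of those in siControl.

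Set side by side, the Dex ratio was smaller with siArglu1 for 7 of the 9 genes and larger for Adra2b and Edn3, with a median difference of -0.23 against 0.0089 over all genes. The interval of the difference lay below 0 for Crispld2 at -0.62 (-0.87 to -0.36), Prcp at -0.51 (-0.72 to -0.31) and Ctso at -0.21 (-0.35 to -0.07). For the other 6 it included 0, as for Tenc1 at -0.23 (-0.52 to 0.06) and Hif3a at -1.47, a value that depends on the prior count and for which no lower end could be set. These intervals cover counting error, and the spread between cultures was not measured. They are narrower for genes with more reads, and Ctso, Prcp and Crispld2 had the most. The share of all genes with such an interval below 0 was not worked out, so nothing is read from how many were below it. The genes were chosen for a high Dex ratio in these libraries, and how far that choice alone sets the siControl ratio above that of siArglu1 was not tested. Across all genes, the Dex ratio in siArglu1 moved with mappable length (Spearman rho 0.54 over 12484 genes), against -0.16 in siControl. With the trend on length removed, the median Dex ratio of the 9 genes was 1.15 in siControl and 1.01 in siArglu1. The difference of Adra2b was then -0.039, so that only Edn3, at 0.32, had a larger ratio with siArglu1.

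Knockdown was compared within vehicle and within Dex, 2 pairs that share no library with each other but share libraries with the Dex pairs above. By the study's size of 0.81 on the log2 scale, 2 of the 8 genes compared in vehicle were higher with siArglu1, Dab1 and Ctso, beside 6.99% of all genes, and 0 were lower, beside 8.77%. Hif3a was left out there because both libraries had at most 3 reads. In Dex, 1 of 9 was higher, Dab1, beside 6.19%, and 1 was lower, Crispld2, beside 5.93%. At an adjusted p of 0.05, an additive edgeR model of both factors over the 4 libraries called 5 of the 9 for knockdown, beside 61.6% of all genes, and a DESeq2 model called 2, beside 48.0%. Both models use vehicle and Dex as replicates of the knockdown, so their p does not measure the spread between cultures. Over the genes compared the median ratio was 0.41 in vehicle and 0.21 in Dex, against 0.0038 and 0.0031 over all genes.

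Ctso was 1.95-fold (1.80 to 2.11) in siArglu1 Veh against siControl Veh and 1.68-fold (1.59 to 1.77) in the Dex pair. Crispld2 went the other way, at 66.8% of siControl in vehicle and 43.6% in Dex, log2 ratios of -0.58 (-0.80 to -0.36) and -1.20 (-1.34 to -1.06). Adra2b was higher by 0.44 (0.12 to 0.77) and 0.48 (0.27 to 0.68), and Dab1 by 1.27 (0.24 to 2.57) and 0.81 (0.17 to 1.54). Htr3b had ratios of 0.69 (-0.08 to 1.53) and 0.60 (0.12 to 1.10), beside 0.67 and 0.63 for its partner Htr3a. Edn3 was at -0.75 and -0.41, with both intervals including 0. Tenc1 at 0.15 and -0.08 and Prcp at 0.38 and -0.13 had ratios of opposite sign in the 2 pairs. Among the genes of the same lists, Ctsl was higher by 0.88 in vehicle, Adra2a by 1.14 in vehicle, and the CAP domain genes Glipr1 and Glipr2 by 2.82 and 1.55 in vehicle and 3.05 and 1.39 in Dex. Ace at -2.17 and -2.07 and Prss16 at -1.01 and -1.21 were lower in both pairs, and Arnt at -1.09 and Irs1 at -1.29 in vehicle.

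Markers of smooth muscle moved with the knockdown. Of 7 with at least 75 reads, 5 were past 0.81 in both pairs (Acta2, Actg2, Myl9, Cnn1 and Myh11). Tagln at 0.705 and 0.43 and Des at -0.18 and -0.25, in vehicle and in Dex, were not. The cRPKM summed over the 8 genes of the list was 11.4 in siControl Dex and hardly more in siControl Veh. It was 200.2 in siArglu1 Veh and 184 in siArglu1 Dex. Myocd, the defining coactivator of that cell type, had no read in any library. The markers of N2a cells moved as well, with a summed cRPKM of 1754 and 1786 in the siControl libraries and of 2376 and 2350 in the siArglu1 libraries. Of 13 with at least 75 reads, 4 were higher (Phox2a, Gata3, Dbh and Elavl4) and 1 was lower (Th) past 0.81 in both pairs. The share of all genes past 0.81 in both pairs was not worked out, so nothing is read from how many markers passed. The part of either marker list in the knockdown ratios of the 9 genes was not tested. Mappable length moved with the knockdown ratios as well, with a rho of -0.40 in vehicle and -0.23 in Dex over all genes, and the genes described here have 2.35 kb (Htr3b) to 6.55 kb (Hif3a).

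**Figure D4:**
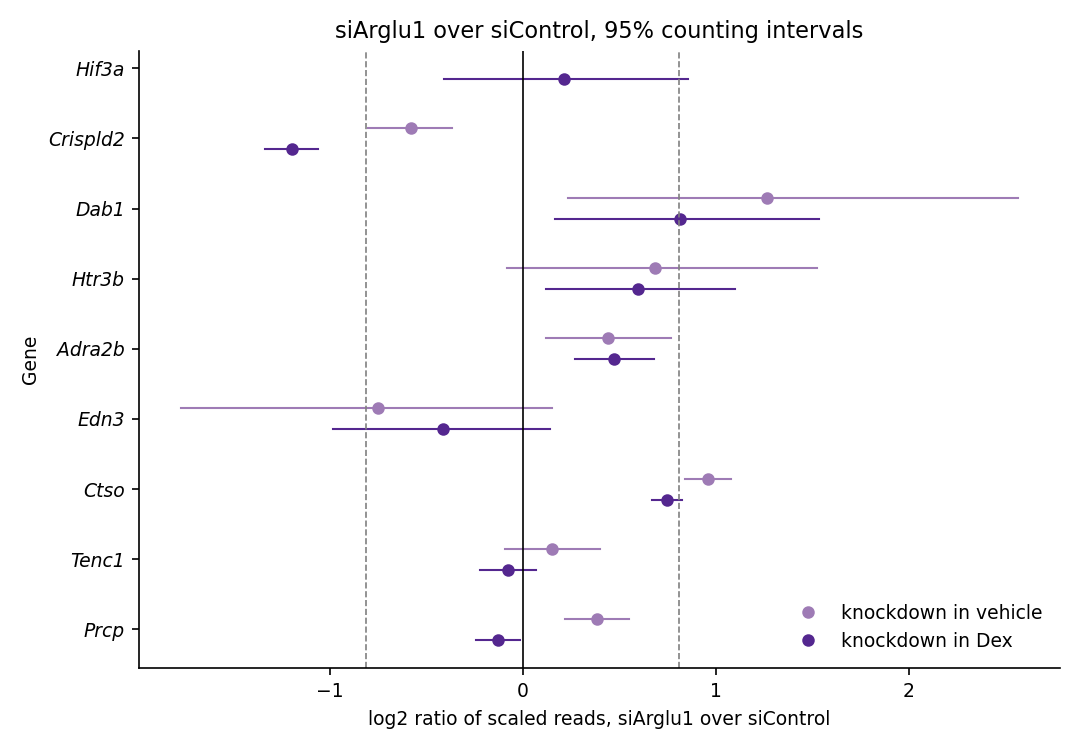
Log2 ratio of scaled reads, siArglu1 over siControl, of each gene in vehicle (light) and in Dex (dark), with 95% counting intervals as bars and dashed lines at the size of 0.81 in either direction. Ctso lies right of 0 and Crispld2 left of 0 in both pairs, and Hif3a has no value in vehicle.

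Splicing is a readout the choice of genes did not use. The tables list 39 cassette exons and alternative splice sites in 7 of the genes and none in Htr3b or Adra2b, and 7 of them had the coverage to be compared, 3 exons of Ctso and 4 of Prcp. The measure is PSI, the percent of transcripts that include the exon, and a difference of at least 15 was counted. Between siRNAs, 2 exons of Ctso passed it in vehicle and in Dex, where 1.96% and 1.52% of all 57183 events passed. Between Dex and vehicle, 0 of the 7 passed it with either siRNA, where 0.719% (siControl) and 0.948% (siArglu1) passed. By their lengths and their distances to the flanking exons given in the table, the Ctso exons are exons 4 and 5 of 8 in the GENCODE transcript Ctso-201. Both events are measured between the same flanking exons, 3 and 6, so they are not independent of each other. Their sequences are printed because they are the 2 events past 15 PSI among the 7 compared, with the first and last 3 bases, which border the splice sites, in capitals.
Ctso exon 4: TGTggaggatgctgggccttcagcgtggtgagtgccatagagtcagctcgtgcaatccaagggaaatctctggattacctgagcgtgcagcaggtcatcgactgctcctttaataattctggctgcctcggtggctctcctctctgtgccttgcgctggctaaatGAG
Ctso exon 5: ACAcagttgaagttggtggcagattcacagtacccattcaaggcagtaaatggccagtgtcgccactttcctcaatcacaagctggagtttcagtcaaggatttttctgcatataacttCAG

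Exon 4, of 168 nt (mm9, chr3:81748784-81748951), had a PSI of 32.7 with vehicle and 46.1 with Dex after siControl, and of 65.5 and 72.1 after siArglu1. Both siArglu1 libraries were above both siControl libraries, with differences of 32.8 in vehicle and 26.0 in Dex. Exon 5, of 122 nt (mm9, chr3:81750236-81750357), had 54.8, 57.3, 79.8 and 84.2, again with both siArglu1 libraries above both siControl libraries, by 25 and 26.9. The length of exon 4 is a multiple of 3, and that of exon 5 leaves a remainder of 2. The difference of Dex minus vehicle for exon 4 was 13.4 in siControl and 6.60 in siArglu1, and for exon 5 it was 2.55 and 4.47, all under 15. Exon 7 of the same transcript, of 93 nt, had a PSI of 94.4 to 96.1 in the 4 libraries, and the 4 exons of Prcp had 95.5 to 100.

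**Figure D5:**
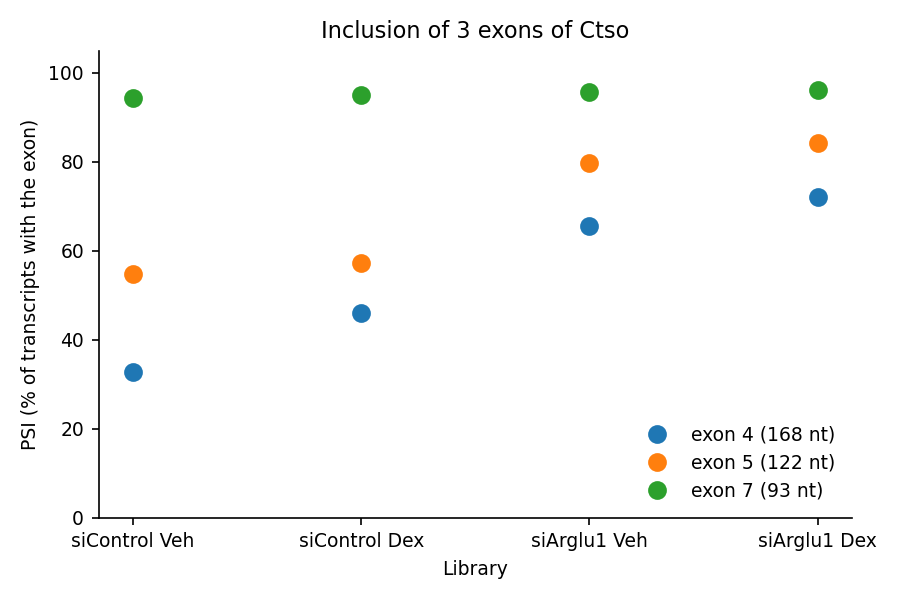
PSI of exons 4, 5 and 7 of Ctso in the 4 libraries, 1 point per library with no replicates. Exons 4 and 5 are higher in both siArglu1 libraries than in both siControl libraries, and exon 7 stays between 94.4 and 96.1.

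The coverage of the Ctso exons was scored OK or better in every library, a score that spans 40 to 99 junction reads in the alternative splice site tables, where reads are given, with more in the class above. The exon table gives no reads, so no interval could be set on these PSI. The authors' tables mark exons 4 and 5 as complex events with unbalanced reads on their junctions, and what this adds to the PSI was not tested.

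Beside the 9 genes stand 18 protein-coding neighbours in the RefSeq order (GRCm38.p6), none of which overlaps the gene it flanks, and 13 of them had at least 75 reads. This look at neighbours was chosen after the values of the 9 genes were known. In siControl 2 of the 13 reached a Dex ratio of 1, beside 0.32% of all genes, and in siArglu1 1 did, beside 0.328%. Whether genes next to each other rise together was not tested. Tdo2, which lies next to Ctso, encodes a tryptophan dioxygenase and is one of the study's Dex genes, had 18, 108, 32 and 166 reads and ratios of 2.43 in siControl and 1.93 in siArglu1. C8b, next to Dab1, encodes a complement component and had 6, 15, 29 and 72 reads, with ratios of 1.11 and 0.88. The median ratio of the 13 was 0.07 in siControl and 0.05 in siArglu1. Htr3a flanks Htr3b and is given above, and Gpat2, beside Adra2b, had ratios of 0.77 and -0.02 on 16 to 39 reads per library.

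The genes whose pattern over the 4 libraries lay nearest to the median pattern of the 9, by Euclidean distance of log2 CPM centred on each gene's mean and leaving out the study's Dex genes, were Drd4, Myrfl, Bcl6, 1700080O16Rik and Sgk1, at distances of 0.37 to 0.48. Within the 9, Adra2b was nearest to that median at 0.20, followed by Htr3b at 0.30 and Tenc1 at 0.36, and Hif3a was farthest at 3.54. Sgk1, a kinase gene known as a GR target, was the only one of the 5 with a high level, at 25.4, 40.2, 28.2 and 49.0 cRPKM, and its Dex ratios were 0.67 and 0.76. Bcl6, a transcriptional repressor, had 98, 188, 100 and 254 reads. Drd4, a dopamine receptor, had 25, 54, 39 and 83. Of 13 classic GR target genes with at least 75 reads, only Per1 reached a Dex ratio of 1, at 1.90 in siControl and 2.53 in siArglu1, while Fkbp5 had 0.68 in both. Over all genes, 0.32% in siControl and 0.328% in siArglu1 reached 1.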

How the data were processed

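The authors deposited raw read counts of 22667 genes in each library, and in the same table an RPKM corrected for mappability (cRPKM), rounded to 2 decimals. A blank was taken as 0 reads. They also deposited splicing tables in which PSI is a percent, with coverage scores. The submitters' processing notes name Bowtie and mm9, with no version given in the sources used here. Columns with the authors' ratio of cRPKM were not used.

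Reads were scaled with TMM factors (edgeR 4.0.16, R 4.3.3), and a prior count of 1 was used for log2 CPM. Genes needed 75 reads over the 4 libraries, and a pair was left out where both libraries had at most 3 reads. Intervals are exact, at 95%, from a binomial conditional on the reads of a pair, or Poisson for 1 library. The libraries of a pair were not tested against each other, as each group is 1 library. A splicing event was compared where every library had a PSI and 3 scored at least LOW. Thresholds were 1 for Dex, 0.81 for knockdown and 15 PSI. An additive edgeR quasi-likelihood model and a DESeq2 1.42.0 model, with 1 residual degree of freedom and Benjamini-Hochberg adjustment at 0.05, were tried as alternatives after a check on simulated data, as were other scalings, prior counts and thresholds and a lowess (span 0.3) on mappable length. Of these models only the edgeR one was checked. The simulated reads were Poisson with no spread between cultures, so the check cannot show how a model fares where cultures differ. Promoter sequences are from RefSeq and exon sequences from GENCODE.

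The 9 genes, the gene lists and the tests were chosen with earlier results of these data known. Named are all 9 genes, Arglu1 and Nr3c1, genes of a list past a threshold or among its 4 most abundant, the 5 nearest by pattern and all events past 15 PSI. Other genes given for context (receptors near 0 reads, neighbours, further list genes) were named after their values were seen. Some genes that this rule would name are not reported here.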

Additional observations from a re-analysis of the deposited data

Results flagged for a closer look

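The ratio of siArglu1 over siControl had opposite signs in vehicle and in Dex for 2 of the genes. For Prcp it was 0.38 (0.22 to 0.55) in vehicle and -0.13 (-0.24 to -0.01) in Dex, a difference of -0.51 on the log2 scale. For Tenc1 it was 0.15 (-0.09 to 0.40) and -0.08 (-0.22 to 0.07), both with counting intervals that include 0, and the difference was -0.23. Each difference equals that of the 2 Dex ratios of the gene. With 1 library per group, neither difference was tested. With the trend on mappable length removed, the ratio of Tenc1 in Dex was 0.03, above 0 like that in vehicle, and that of Prcp in Dex stayed at -0.13.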

How the results depend on the processing

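Each value rests on 1 pooled library per group, so no replicate could be left out, and there is no spread between cultures. No paired analysis was possible because each group has 1 library, so that no group shares 2 replicate numbers with another, and the additive models below are the only fits that use both treatments. DESeq2 size factors, the length correction and no minimum of reads left the counts of the 9 genes past 1 at 8 in siControl and 5 in siArglu1. With a prior count of 5 they were 8 and 4, where Htr3b was at 0.995 in siArglu1, beside 27 and 26 over all genes. The deposited cRPKM were used with a pseudocount of 0.1, which pulls low genes towards 0. With them, 4 genes instead of 8 reached 1 in siControl and 3 instead of 5 in siArglu1. Over all genes, 15 of 12484 and 17 of 12482 reached 1 with cRPKM. At a threshold of 0.5 all 9 passed in siArglu1, beside 337 of 12495 over all genes. For knockdown in vehicle, 1 gene instead of 2 was past the threshold with cRPKM and 5 at 0.5. Over all genes, 676 were higher and 1012 lower of 12482 with cRPKM, and 2074 and 2334 of 12495 at 0.5. For knockdown in Dex, 1 gene instead of 2 was past the threshold with size factors, with cRPKM and with a prior count of 5. In that order, Dab1 fell to 0.806, 0.35 and 0.74. At a threshold of 0.5, 4 of the 9 passed. Over all genes, 756 were higher and 753 lower of 12497 with size factors, and 664 and 606 of 12484 with cRPKM. With a prior count of 5 they were 731 and 712 of 12497, and at 0.5 they were 1827 and 1779. Past 0.81 in both knockdown pairs was 1 gene, Dab1. The share of all genes past it in both was not worked out, so nothing is read from this count. At an adjusted p of 0.05, the additive edgeR model called 5 of the 9 for knockdown (Crispld2, Dab1, Htr3b, Adra2b and Ctso) beside 3847 genes higher and 3857 lower of 12497, and DESeq2 called 2 (Crispld2 and Ctso) beside 2856 and 3147, with 1 residual degree of freedom and Dex and knockdown assumed to act independently. The counts of splicing events were the same with OK coverage in all libraries and at 25 PSI. The ratio of Hif3a in siControl was 3.13 with a prior count of 5 and 0.85 with cRPKM. No ratio past its threshold changed sign.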

Other observations

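Crispld2 has an alternative 3' splice site 3 nt from the reference site that was too thinly covered to be compared. It took 0 of 3 junction reads in siControl Veh, 13 of 29 in siControl Dex (PSI 44.8, Clopper-Pearson 26.4 to 64.3), none of 0 in siArglu1 Veh and 7 of 18 in siArglu1 Dex (PSI 38.9, 17.3 to 64.3). Junction reads were thus found mainly in the Dex libraries. The level of the gene was 6.715, 17.54, 4.485 and 7.643 CPM in the same order, and its part in these junction reads was not tested.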
